A study of Mus musculus with 25 samples.

Results

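Monocyte-derived macrophages (MDM) sorted from transplanted brain tumours of mice were compared with MDM sorted from tumours that had arisen spontaneously, over tumours of both labelled types. The comparison holds 9 of the 25 labelled samples: 4 type 1 and 2 type 2 transplanted libraries, and 2 type 1 and 1 type 2 spontaneous libraries, chosen by their labels for cell type, tumour type and model. Tumour type was a covariate in the fit. The tumours model glioblastoma (GBM), an aggressive brain tumour, and the series title calls both models lineage-based and names the dependence of tumour progression on these macrophages as its question. The groups are named by tumour type, model and sorted cell type alone: the labels give no allele, Cre driver, strain, host, age, graft route or sort gate, and no treatment. What the transplanted groups share beyond transplantation is therefore not known from the labels. Since nothing in them ties the replicates to separate animals, a p-value here measures only how far the libraries differ, part of which may be technical.

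Blood monocytes enter a brain tumour through its leaky vessels and mature there into macrophages, which join the resident microglia. Macrophages in tumours engulf dying cells through receptor kinases such as Axl and Mertk, break down the cargo in lysosomes, export the cholesterol it yields and secrete matrix proteins, growth factors and chemokines. Interferon gamma from T and NK cells makes macrophages express guanylate-binding proteins, which attack intracellular microbes, and MHC class II molecules, which present peptides to T cells carrying CD4.

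The 9 libraries held 26530069 to 42925260 reads and 16883 to 21435 detected genes each, and a difference between the models was detected in neither measure (exact permutation test within tumour types, two-sided, p = 0.87 for reads and 0.27 for genes, smallest possible p = 0.022). By sex-linked transcripts 3 transplanted libraries were female and 3 male, and 2 spontaneous libraries were female and 1 male. The 4 type 1 transplanted libraries and type 2 transplanted replicate 1 stood apart from the rest in transcripts of lymphocytes. The mean log2 level of 21 T and NK cell genes was 13.19 to 13.40 in type 1 transplanted libraries, 12.43 and 9.82 in type 2 transplanted replicates 1 and 3, and 8.53 to 9.66 in spontaneous libraries. The mean of 11 B cell and plasma cell genes was up to 12.30, then 11.20 and 7.92, and 5.81 to 8.24 in the same order. Conversely, the mean of 10 genes that most macrophages express (Spi1, Cd68, Aif1, Ctss, Mpeg1, Cybb, Adgre1, Fcgr1, Cd14 and Sirpa) was 11.82 to 12.74 in type 1 transplanted libraries, 13.48 and 14.98 in type 2 transplanted replicates 1 and 3, and 14.34 to 14.98 in spontaneous libraries. Type 2 transplanted replicate 3 thus lay next to the spontaneous libraries in both kinds of transcript, and on the first principal component, with 42.0% of the variance, it lay at -116.5 among spontaneous libraries at -125 to -76.9, while the other transplanted libraries lay at 24.0 to 105.3. The part of these transcripts in the results below was not tested. In bulk RNA, fewer cells of a type and less of a gene's RNA per cell cannot be told apart.

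**Figure D1:**
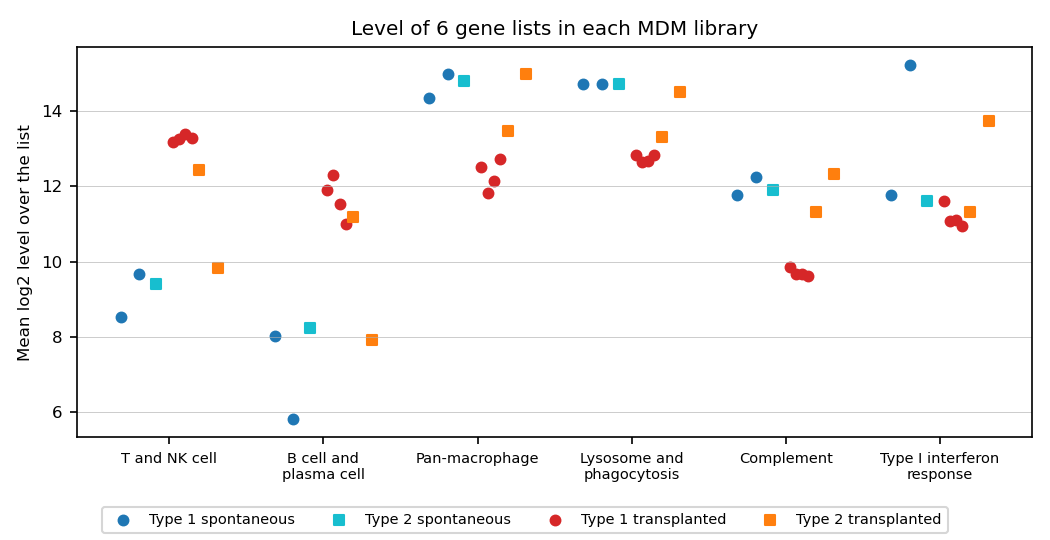
Mean log2(normalised read count + 1) over 6 gene lists, 1 point per MDM library, coloured by tumour type and model. T and NK cell transcripts lie at 12.43 to 13.40 in 5 transplanted libraries and at 8.53 to 9.82 in the spontaneous libraries and type 2 transplanted replicate 3, and pan-macrophage transcripts have the opposite order.

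Transcripts of Itgam, Ccr2 and Ptprc were present in every library, which does not show how pure the sort was. Itgam, the CD11b subunit of the myeloid integrin, had 3253 to 8231 normalised reads in type 1 transplanted, 8931 and 16536 in type 2 transplanted and 17313 to 23634 in spontaneous libraries, a change of -1.61 ± 0.40 on the log2 scale (± standard error of the fit, here and below; adjusted p = 0.053). Ccr2, the receptor that draws monocytes out of the blood, had 6390 to 12973, then 19272 and 56757, and 6913 to 28078, and overlapped between models (-0.29 ± 0.69, adjusted p = 0.83). Ptprc, which encodes the leukocyte antigen CD45, had 20403 to 30842 in transplanted and 8385 to 22405 in spontaneous libraries (1.08 ± 0.29, adjusted p = 0.063).

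Across the 15425 genes tested, 797 (5.17%) differed between models at an adjusted p under 0.05, 456 of them higher and 341 lower in transplanted MDM (2.96% and 2.21% of genes), and 3785 genes had an unadjusted p under 0.05. The 6 transplanted libraries lay wholly above the 3 spontaneous ones for 715 genes (4.64%) and wholly below for 738 (4.78%), 9.42% in all. Of the calls 57.2% were rises. That share was 85.0% of 1026 calls with every library scaled to the same total, which moved the median of all genes from 0.02 to 0.41, and 99.6% of 8727 calls (56.6% of genes, 56.4% as rises) with libraries scaled to the 10 macrophage genes above, which moved it to 1.75. Of the 456 rises, type 2 transplanted replicate 3 lay above all spontaneous libraries for 322 (70.6%) and replicate 1 for 422 (92.5%), and of the 341 falls they lay below for 279 (81.8%) and 332 (97.4%). Leaving out the 4 type 1 transplanted libraries, so that the change comes from the 2 transplanted and 1 spontaneous type 2 libraries, left 0 limma calls and 847 genes at an unadjusted p under 0.05. Each of the 9 libraries moved the count by over 1.5 times when left out, from 165 calls without type 1 transplanted replicate 2 to 2623 without type 2 transplanted replicate 3. Of the 51 called genes named in the text, 22 kept their call when any 1 of the 9 libraries was left out, Gbp2b, Spp1, Siglec1, Hebp1, Axl, Abcg1, Cd8a and Nlrp1a among them, and 29 lost it without at least 1 library. The number of lost calls was 20 to 27 for each type 1 library, 19 for type 2 transplanted replicate 1, 4 for the type 2 spontaneous library and 0 for type 2 transplanted replicate 3.

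Among the named genes the largest rise was that of Gbp2b, a guanylate-binding protein gene induced by interferon gamma. It had 966, 635, 537 and 378 normalised reads in type 1 transplanted libraries, 385 and 1797 in type 2 transplanted ones, and 0.814, 1.30 and 0 in the spontaneous ones. Every transplanted library thus lay far above every spontaneous one, in both tumour types. Over all libraries 5668 reads fell on the gene in transplanted and 2 in spontaneous MDM, a ratio of normalised reads of 1136 (95% exact interval 314 to 9385, counting error only), and the fitted change was 8.69 ± 0.58 (adjusted p = 0.00069). Gbp2b lies on chromosome 3 (142594816 to 142619179, RefSeq on GRCm38.p6), directly before its paralog Gbp2 (142620663 to 142638008). Gbp2, chosen for this position after its values were seen, had 9341, 7100, 5699 and 5896 reads in type 1 transplanted, 7296 and 28231 in type 2 transplanted and 2234, 62308 and 1692 in spontaneous libraries. Here type 1 spontaneous replicate 2 was the highest of all 9, and the change was 0.51 ± 1.06 (adjusted p = 0.81).

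The sequences before both start sites are shown because the neighbours belong to 1 interferon-responsive family and had unlike values in these libraries. The 250 bases before each transcription start of the RefSeq promoter table, on GRCm38.p6, are printed in lower case with capitals for matches to GAAANNGAA, the core of the interferon-stimulated response element, or its reverse complement TTCNNTTTC. The Gbp2b window is chr3:142594597-142594846 and the Gbp2 window chr3:142620413-142620662, both on the plus strand. The Gbp2b start in that table lies 31 bases inside the gene as given above, so the last bases of its window are within the annotated gene, while the Gbp2 start is the first base of its gene.
Gbp2b: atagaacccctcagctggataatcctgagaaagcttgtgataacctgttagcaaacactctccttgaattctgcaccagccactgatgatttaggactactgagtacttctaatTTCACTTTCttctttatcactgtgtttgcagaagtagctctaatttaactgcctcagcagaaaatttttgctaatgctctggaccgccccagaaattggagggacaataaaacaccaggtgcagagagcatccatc
Gbp2: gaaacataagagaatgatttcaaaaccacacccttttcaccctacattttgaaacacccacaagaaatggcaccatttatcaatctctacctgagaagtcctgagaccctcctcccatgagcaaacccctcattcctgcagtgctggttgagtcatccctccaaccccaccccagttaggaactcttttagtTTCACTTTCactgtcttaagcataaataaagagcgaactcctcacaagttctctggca
Each window held 1 match, the same 9 letters TTCACTTTC, which began 136 bases before the start in Gbp2b and 58 bases before it in Gbp2. Of 32851 promoter windows of the same length 7.13% held a match. Counted by gene, with a match in any window, 2211 of 27025 genes had one. So did 14 of the 21 members of the interferon gamma list that were in the RefSeq table. A match is a run of letters and does not show that a factor was bound.

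Among the 29 interferon gamma response genes tested, 3 rose and 0 fell, with a median of 0.51 beside 0.02 for all genes, and the 3 were guanylate-binding proteins. Of all tested genes 2.96% rose and 2.21% fell. The list's median was -0.02 in type 1 and 1.70 in type 2, which holds 1 spontaneous library. After Gbp2b came Gbp8, with 1235 to 1724 reads in type 1 transplanted, 800 and 1144 in type 2 transplanted and 228, 350 and 362 in spontaneous libraries. All transplanted libraries again exceeded all spontaneous ones (1.99 ± 0.27, adjusted p = 0.0083). Gbp6 had 673 to 2390 reads in transplanted and 109, 292 and 873 in spontaneous libraries and overlapped through type 2 transplanted replicate 1 (2.29 ± 0.50, adjusted p = 0.035). These genes belong to a family of paralogs, and how reads that match several members were counted is not given in the sources used here, so their separate values are uncertain. Of the 17 MHC class I genes only H2-Q7, a nonclassical class I gene of the Q region, was called: it had 616 to 1495 reads in transplanted and 208, 216 and 225 in spontaneous libraries (2.31 ± 0.27, adjusted p = 0.0068). Its neighbour and paralog H2-Q6 had 173 to 696 and 116 to 143 reads (1.53 ± 0.47, adjusted p = 0.087). H2-Q4 of the same region had the opposite sign, with 420 to 3650 and 1957 to 2965 reads (-1.77 ± 0.59, adjusted p = 0.11).

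The lists of lymphocyte genes had the highest shares of rises: 14 of 21 T and NK cell genes and 5 of 11 B cell and plasma cell genes rose and none fell, with medians of 3.49 and 3.87. The share of rises over all tested genes was 2.96%. Cd8a, the coreceptor of cytotoxic T cells, had 8331, 5129, 11944 and 6309 reads in type 1 transplanted, 889 and 616 in type 2 transplanted, 539 and 643 in type 1 spontaneous and 75.0 in type 2 spontaneous libraries. The models were separated within each tumour type, but type 2 transplanted replicate 3 lay within the range of the type 1 spontaneous libraries (3.55 ± 0.29, adjusted p = 0.0016). Cd3g, a chain of the T cell receptor complex, changed by 3.93 ± 0.33 (adjusted p = 0.0016). Cxcr6, a chemokine receptor of resident T and NK cells, had 5989 to 11377 reads in type 1 transplanted, 1676 and 955 in type 2 transplanted, 613 and 580 in type 1 spontaneous and 71.8 in type 2 spontaneous libraries, with no overlap (3.87 ± 0.26, adjusted p = 0.00069). For B cells, Ms4a1, which encodes CD20, had 2028 to 5442, then 858 and 386, and 57.2 to 215 in the 3 spontaneous libraries (3.87 ± 0.65, adjusted p = 0.017). Ncr1, the NK cell receptor NKp46, chosen after its values were seen, was present at 3229 reads in type 2 spontaneous and 2437 in type 2 transplanted replicate 3, and at 27257 in type 2 transplanted replicate 1 and 6757 to 15223 in type 1 transplanted libraries, against 190 and 519 in type 1 spontaneous ones.

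The other large rises had few or no reads in most spontaneous libraries. Themis, which sets the threshold of T cell receptor signalling, had 774 to 1229 reads in type 1 transplanted, 39.3 and 210 in type 2 transplanted and 77.4, 7.81 and 0 in spontaneous libraries (5.64 ± 0.75, adjusted p = 0.0081). Sytl2, a synaptotagmin-like protein of secretory granules, had 750 to 1142, then 931 and 141, and 25.2, 0 and 41.8 (6.03 ± 1.15, adjusted p = 0.025). Col8a2, a chain of type VIII collagen, had 24.8 to 282, then 114 and 42.8, and 0, 0 and 1.07, a ratio of normalised reads of 476 (95% exact interval 85.3 to 18814). Ccl1, a chemokine, had 102 to 169, then 19.1 and 46.3, and 0, 2.60 and 0 (ratio 166, interval 45.9 to 1376). For Klrh1, a receptor gene of the NK complex, 1585 reads stood against 3 (ratio 212, interval 72.4 to 1028). In type 2 transplanted replicate 3, Gprin3, Styk1, Ripply3, Klhl30, Nuggc and Dzank1 had 12.2 to 155 reads, below the 5 other transplanted libraries in each of these genes. Sytl2 was also lowest there, whereas Gbp2b, Themis, Klrh1, Ccl1 and Col8a2 were not. Styk1 had 155 reads both in this library and in the type 2 spontaneous one, and Klhl30 had 12.2 and 19.3.

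**Figure D2:**
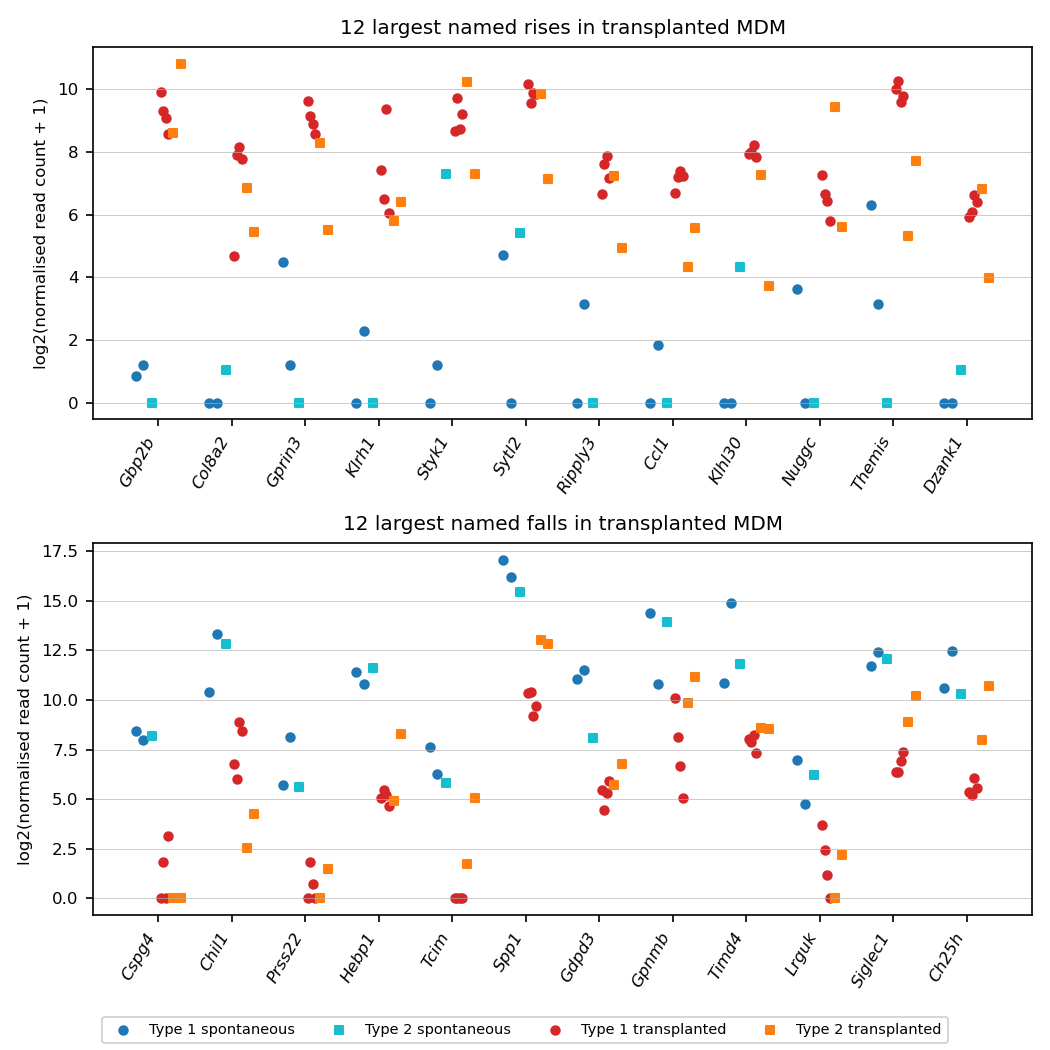
Level of the 12 largest named rises (top) and 12 largest named falls (bottom) as log2(normalised read count + 1), 1 point per MDM library. Gbp2b is near 0 in all 3 spontaneous libraries and at 378 to 1797 reads in all transplanted ones, while Spp1 has 44350 to 138131 reads in spontaneous and 588 to 8352 in transplanted libraries.

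Among the 12 largest falls, Spp1 had the highest level. Spp1 encodes osteopontin, a secreted phosphoprotein that macrophages release in wounds and tumours. It had 138131 and 75601 reads in type 1 spontaneous and 44350 in type 2 spontaneous libraries, 1316, 1348, 588 and 842 in type 1 transplanted and 8352 and 7298 in type 2 transplanted ones. The models did not overlap in either tumour type. Within type 1 the change was -6.72 ± 0.40, and within type 2, with 1 spontaneous library, it was -2.51 and not called. Over both types the change was -5.32 ± 0.72 (adjusted p = 0.0082), and -3.55 ± 0.63 (adjusted p = 0.0020) on the scale of the 10 macrophage genes.

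Hebp1, a heme-binding protein whose cleaved peptide attracts monocytes, had 2717, 1789 and 3177 reads in spontaneous, 24.0 to 43.7 in type 1 transplanted and 28.6 and 313 in type 2 transplanted libraries (-5.69 ± 0.65, adjusted p = 0.0062). Siglec1, the sialic acid receptor CD169 of tissue macrophages, had 3383, 5477 and 4251, then 80.8 to 164, and 467 and 1196 (-4.38 ± 0.57, adjusted p = 0.0081). Both were split without overlap, with type 2 transplanted replicate 3 the nearest to the spontaneous libraries. Timd4, a phosphatidylserine receptor for dying cells, had 1840, 30742 and 3619 reads in spontaneous and 158 to 389 in transplanted libraries (-4.42 ± 0.76, adjusted p = 0.018). Chil1, a chitinase-like protein, had 1355, 10276 and 7258, then 63.7 to 480, and 4.77 and 18.3, so that the lowest values were in type 2 transplanted libraries (-6.03 ± 1.13, adjusted p = 0.023). Ch25h, which makes 25-hydroxycholesterol, was not split in this way: type 2 transplanted replicate 3 had 1651 reads, between the 1286 and 5657 of spontaneous libraries (-4.30 ± 0.97, adjusted p = 0.039).

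Cspg4 had the largest fall of all named genes. It encodes the NG2 proteoglycan, a marker of oligodendrocyte progenitors and pericytes, and had 345, 252 and 291 reads in spontaneous libraries, 0, 2.62, 0 and 7.99 in type 1 transplanted and 0 and 0 in type 2 transplanted ones (-7.37 ± 0.86, adjusted p = 0.0066). It was the only one of 10 oligodendrocyte and progenitor genes tested that was called, beside 2.21% of all genes that fell. The list's median was -0.50, and its mean level reached 6.74 in spontaneous and 5.75 in transplanted libraries. Sox10 and Mog, defining markers of that lineage, were below the filter on low counts. Nes, the intermediate filament nestin of neural progenitors and some tumour cells, had 82.5 to 175 reads in spontaneous and 9.61 to 28.8 in transplanted libraries (-2.49 ± 0.48, adjusted p = 0.026). The part of tumour or glial RNA in these falls was not tested. Hunk, a kinase gene, had 35.0, 42.9 and 62.2 reads in spontaneous libraries and a single read over all 6 transplanted ones, a ratio of 334 (95% exact interval 59.0 to 13297).

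Macrophage lists differed in how many of their genes fell, beside 2.21% of all tested genes. None of 20 transcription factors of the macrophage lineage was called with limma or with voom, its version for read counts (median -0.87, 8 at an unadjusted p under 0.05). Within type 1 libraries 8 of the 20 fell, beside 5.80% of all genes. Of 30 genes of monocyte-derived macrophages 1 fell, Tgfbi, described below (median -0.56, and 0.55 in type 2 libraries). Of 10 genes of border-associated macrophages 1 fell (median -1.84): Stab1, the scavenger receptor stabilin 1, had 2835 to 3493 reads in spontaneous, 221 to 568 in type 1 transplanted and 1481 and 3860 in type 2 transplanted libraries, so that the models overlapped (-2.18 ± 0.53, adjusted p = 0.049). Of 28 lysosome and phagocytosis genes 9 fell and 0 rose (median -1.58, and 0.19 on the scale of the 10 macrophage genes, where 0 were called in either direction). On that scale the median of all genes was 1.75, and 56.4% of them rose. Cd68 and Ctss belong both to this list and to the 10 genes that set the scale. Grn, the lysosomal protein progranulin, had 108909 to 162630 reads in spontaneous, 12460 to 18142 in type 1 transplanted and 30293 and 83554 in type 2 transplanted libraries (-2.55 ± 0.47, adjusted p = 0.022). Ctsa, which protects other lysosomal enzymes, changed by -1.58 ± 0.27 (adjusted p = 0.018; 0.18 on the macrophage scale). In both genes the spontaneous libraries lay above every transplanted one, and type 2 transplanted replicate 3 was the highest of the transplanted libraries.

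Falls were also counted among genes of lipid-associated macrophages and of cholesterol efflux. Of all tested genes 2.21% fell, and the median of all genes on the macrophage scale was 1.75. Of 23 genes of disease-associated microglia and lipid-associated macrophages 6 fell and 0 rose (median -1.74, and 0.02 on the macrophage scale), among them Axl, Csf1 and Cd9. Axl, a receptor kinase that bridges to phosphatidylserine, had 45202, 44478 and 27621 reads in spontaneous, 3244 to 4806 in type 1 transplanted and 5809 and 10746 in type 2 transplanted libraries (-2.89 ± 0.35, adjusted p = 0.0068; -1.12 and adjusted p = 0.055 on the macrophage scale). Its relative Mertk changed by -2.80 ± 0.54 (adjusted p = 0.026), with type 2 transplanted replicate 3 at 2073 reads among the 1666 to 3946 of spontaneous libraries. Of 18 genes of cholesterol efflux and lipid storage 6 fell and 0 rose (median -1.70, and 0.06 on the macrophage scale). Abcg1, a cholesterol exporter, had 8981 to 18211 reads in spontaneous and 2070 to 5029 in transplanted libraries, with type 2 transplanted replicate 1 the lowest (-1.72 ± 0.23, adjusted p = 0.0081; 0.04 on the macrophage scale). Apoe, the lipid carrier, had 404080 to 2082002 and 107142 to 501731 reads (-2.08 ± 0.47, adjusted p = 0.040). None of 21 cholesterol synthesis genes was called with limma or voom (median 0.14, 5 at an unadjusted p under 0.05).

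Secreted factors and surface receptors gave smaller counts. Beside them, 2.21% of all genes fell, and the median of all genes was 1.75 on the macrophage scale. Of 25 matrix and protease genes 3 fell (median -2.27, and -0.51 on the macrophage scale), led by Mmp14, a membrane-bound collagenase, with 7609 to 11007 reads in spontaneous, 952 to 1123 in type 1 transplanted and 3771 and 5752 in type 2 transplanted libraries (-2.35 ± 0.42, adjusted p = 0.020). Of 19 growth factor and ligand genes 4 fell (median -0.99, and 0.77 on the macrophage scale). They included Csf1, the growth factor that sustains macrophages, with 2365 to 4895 reads in spontaneous and 168 to 996 in transplanted libraries (-2.89 ± 0.50, adjusted p = 0.019), and Pdgfa, a mitogen of glial progenitors and glioma cells, with 497 to 722 and 61.7 to 458 (-2.30 ± 0.51, adjusted p = 0.037). Of 23 immunosuppressive and alternative activation genes 3 fell (median -1.11, and 0.65 on the macrophage scale): Havcr2, the checkpoint receptor TIM-3 (-1.99 ± 0.43, adjusted p = 0.034), Tgfbi, a matrix protein induced by TGF-beta (-2.56 ± 0.60, adjusted p = 0.042), and Gpnmb, a glycoprotein of lipid-laden macrophages (-4.53 ± 1.11, adjusted p = 0.049). Of 28 genes of homeostatic microglia 5 fell (median -1.82, and -0.08 on the macrophage scale). Tmem119, a surface protein that marks microglia, was among them: it had 13814 to 33666 reads in spontaneous, 852 to 2174 in type 1 transplanted and 3706 and 17199 in type 2 transplanted libraries (-3.20 ± 0.63, adjusted p = 0.027). In microglia libraries of the same study Tmem119 had 108973 to 245104 reads.

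**Figure D3:**
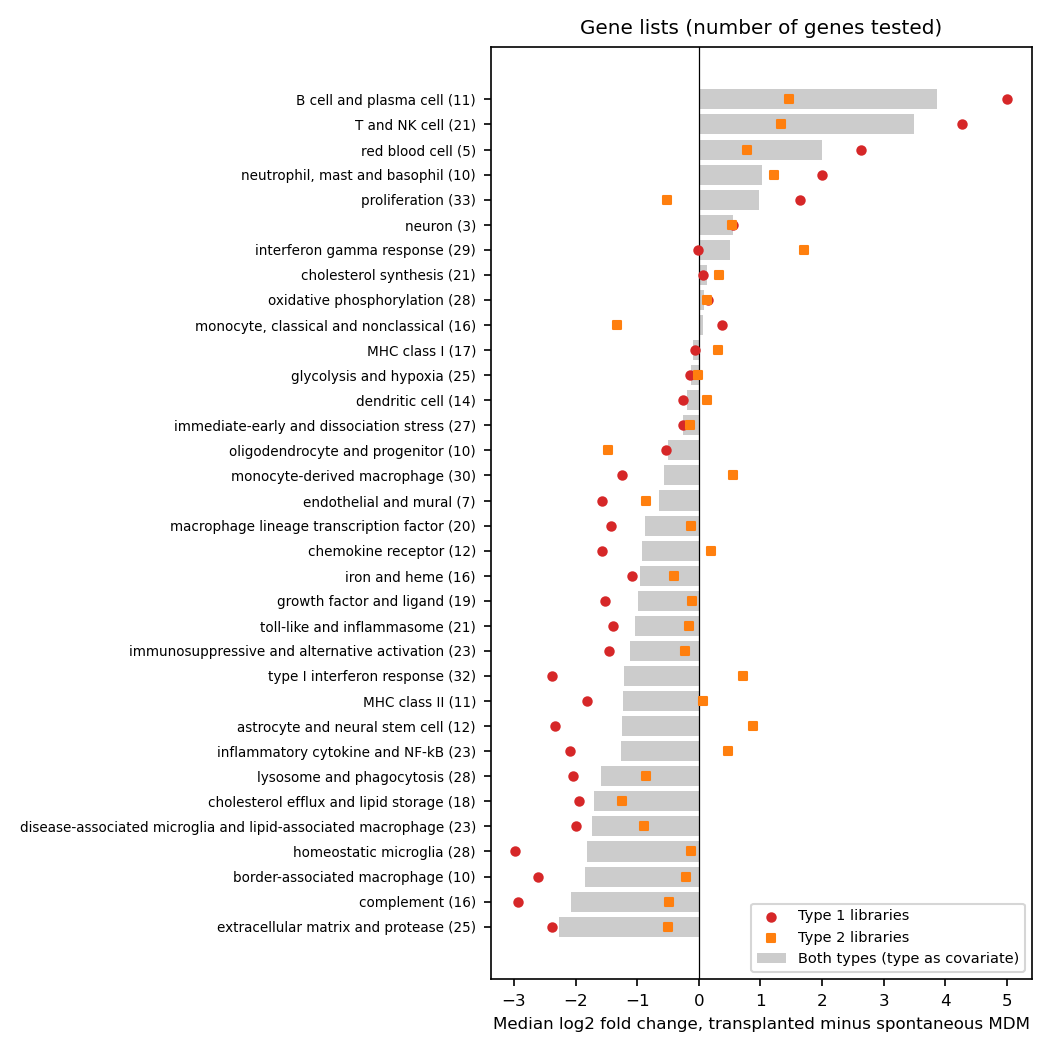
Median log2 fold change of each gene list in transplanted against spontaneous MDM: grey bars use both tumour types, red circles type 1 libraries and orange squares type 2 libraries. The lymphocyte lists have medians of 3.49 and 3.87, and the lysosome (-1.58), lipid-associated (-1.74) and cholesterol efflux (-1.70) lists lie below 0 in both types. These 3 lists are at 0.19, 0.02 and 0.06 when libraries are scaled to 10 macrophage genes, where the median of all genes is 1.75.

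Without the 4 type 1 transplanted libraries no gene of these lists was called, and the medians were 1.34 for T and NK cell, 1.47 for B cell and plasma cell, -0.86 for lysosome, -0.89 for disease-associated and -1.25 for cholesterol efflux genes. On the macrophage scale 35 genes were lower at an adjusted p under 0.05 (0.227% of genes), of which 23 were also called lower without it. They included Cspg4, Spp1, Hebp1, Siglec1, Timd4, Gpnmb and Chil1. Siglec1 changed there by -2.62 ± 0.55 (adjusted p = 0.0043) and Hebp1 by -3.94 ± 0.68 (adjusted p = 0.0019). Arg1, Fn1 and Postn, which did not pass the test on the usual scale, changed by -2.47 ± 0.96, -2.19 ± 0.77 and -3.81 ± 1.26 (adjusted p = 0.038, 0.028 and 0.022). The falls of Arg1 and Fn1 were those of type 1 libraries. On the usual scale Arg1 was at -7.10 within type 1 and 1.53 within type 2, and Fn1 at -5.98 and 0.12. Arg1 encodes arginase 1, Fn1 fibronectin and Postn periostin, a matrix protein of wounds. These 3 genes were chosen after their values were seen, and the scale itself was chosen after seeing the data.

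The models differed at many genes among type 1 libraries and at few among type 2 libraries. Type 1 libraries gave 884 rises and 895 falls (5.73% and 5.80% of genes) from 4 against 2 libraries, and type 2 libraries 63 rises and 1 fall (0.408% and 0.00648%) from 2 against 1, so the counts do not compare the types at equal numbers. Both come from 1 fit in which all 9 libraries set the spread, and the lone type 2 spontaneous library is assumed to vary like the other groups. With voom on the recovered reads, 0 genes were called in type 2 (1539 at an unadjusted p under 0.05), while leaving out 1 library gave 1 to 9 calls without any one type 1 transplanted library, 138 and 99 without type 1 spontaneous replicates 1 and 2, and 249 and 174 without type 2 transplanted replicates 1 and 3. The difference between the types was itself called for 5 genes (0.0324%), each more negative in type 1. Chil3, a chitinase-like protein of alternatively activated macrophages also known as Ym1, had 142, 112, 231 and 323 reads in type 1 transplanted and 41610 and 219838 in type 1 spontaneous libraries, against 12382 and 25300 in type 2 transplanted and 1423 in type 2 spontaneous ones. It was thus lower in transplanted than in spontaneous libraries of type 1 and higher in those of type 2 (difference between types -12.64 ± 1.17, adjusted p = 0.015).

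Arg1, which consumes the arginine that T cells need, had the same order. It had 53.6, 23.6, 62.6 and 37.8 reads in type 1 transplanted, 4333 and 7912 in type 1 spontaneous, 3181 and 5047 in type 2 transplanted and 1383 in type 2 spontaneous libraries (difference -8.64 ± 0.78, adjusted p = 0.015). Spint1, an inhibitor of serine proteases, had 990 to 1126, 18063 and 19977, 3197 and 7546, and 53.6 in these groups (-10.66 ± 0.56, adjusted p = 4.2e-04). Cd93, a receptor of myeloid and endothelial cells, gave -5.47 ± 0.59 (adjusted p = 0.034), and the unnamed 0610042G04Rik gave -5.26 ± 0.59 (adjusted p = 0.040). In all 5 genes the type 2 side rests on 1 spontaneous library, which had the lowest value of the 3 spontaneous libraries and whose own spread cannot be measured. Spint1 was called in all 8 fits that left out 1 other library, Arg1 in 5, Chil3 and Cd93 in 3 each and 0610042G04Rik in 2. The count of genes that differed between types was 1037 without type 2 transplanted replicate 1, 385 without type 1 spontaneous replicate 1 and 1 to 3 without any other single library.

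**Figure D4:**
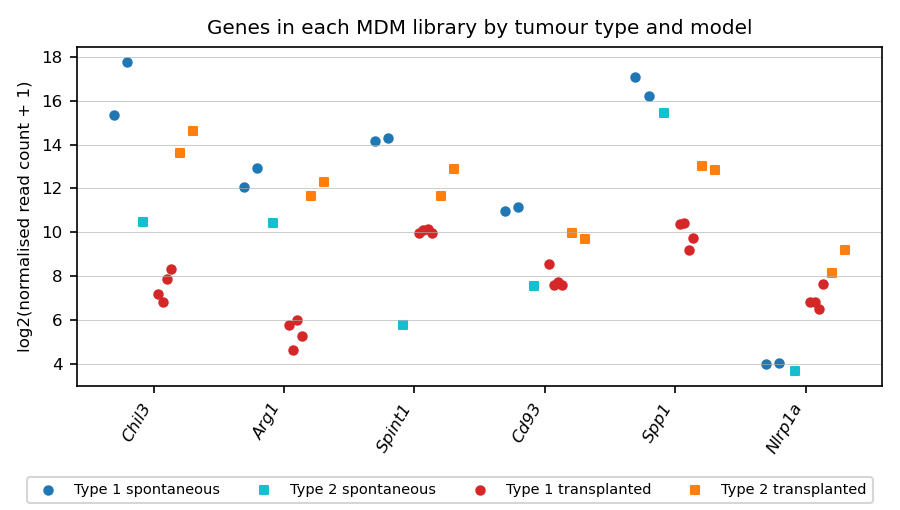
Level of 6 genes as log2(normalised read count + 1), 1 point per MDM library, coloured by tumour type and model. Chil3, Arg1, Spint1 and Cd93 are lower in transplanted than spontaneous libraries of type 1 and higher in those of type 2, whereas Spp1 is lower and Nlrp1a higher in transplanted libraries of both types.

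The type I interferon response list gave no call among 32 genes with limma or voom (6 at an unadjusted p under 0.05; median -1.21; -2.39 in type 1 and 0.72 in type 2), and its mean level set type 1 spontaneous replicate 2 apart. That library had a list mean of 15.23, against 11.60 and 11.76 in the other spontaneous libraries, 10.94 to 11.60 in type 1 transplanted and 11.32 and 13.73 in type 2 transplanted ones. Oas2, an antiviral RNA sensor, had 15210 reads there and 1740 and 2479 in the other spontaneous libraries (-2.61 ± 0.89, adjusted p = 0.11). None of 28 oxidative phosphorylation genes (median 0.09), 33 proliferation genes (median 0.97), 14 dendritic cell genes (median -0.19) or 16 monocyte genes (median 0.06) was called with limma or voom, and 2, 9, 5 and 2 of them had an unadjusted p under 0.05. Within type 1 libraries, where 5.73% of all genes rose and 5.80% fell, 3 of the proliferation genes rose and none fell, 1 dendritic cell gene rose and 4 fell, and 1 monocyte gene rose and 3 fell.

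Whether the model acted alike in MDM and in tumour microglia was tested with an interaction over 21 libraries. MDM and microglia libraries whose labels share a number entered the fit as independent. The labels do not say whether they came from the same tumour, and no such pairing was fitted. The change differed for 385 of 17216 genes (2.24%), more positive in MDM for 168 (0.976%) and more negative for 217 (1.26%). Of 11 MHC class II genes the change was more negative in MDM for 7. In microglia 6 of the 11 rose, as did 1.00% of all genes. In the 9 MDM libraries none was called with limma or voom (9 at an unadjusted p under 0.05), with a median of -1.23 over both tumour types and 0.06 in type 2, and 6 fell within type 1. H2-Aa had an adjusted p of 0.098 in MDM and 0.0019 in microglia. H2-Aa, a chain of the class II molecule I-A, had 67047 to 90115 reads in type 1 transplanted, 216710 and 155911 in type 2 transplanted and 188257 to 325370 in spontaneous MDM, and in microglia a median of 109014 (25972 to 203083) in transplanted against 11570 (1757 to 46781) in spontaneous tumours. The ranges of transplanted microglia and transplanted MDM thus overlapped, and the difference of the changes was -4.16 ± 0.80 (adjusted p = 0.012). Ciita, the transcriptional activator of class II genes, had 2026 to 5539 reads in transplanted and 4706 to 12285 in spontaneous MDM, and in microglia a median of 690 against 57.8 (difference -4.40 ± 0.82, adjusted p = 0.0096). H2-Ab1, H2-Eb1, Cd74, H2-DMa and H2-DMb1, which form or load the class II molecules, differed by -4.40 to -1.54. H2-Eb2, H2-DMb2, H2-Oa and H2-Ob were not called. H2-Aa, H2-Ab1, H2-Eb1 and Ciita kept the call in all 20 fits that left out 1 library, Cd74 in 18, H2-DMa in 10 and H2-DMb1 in 5.

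**Figure D5:**
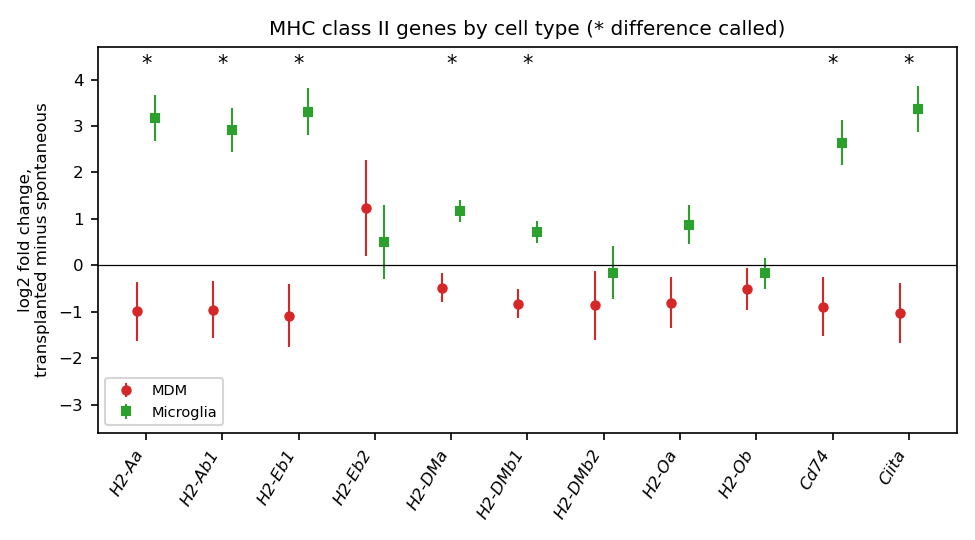
Log2 fold change of transplanted against spontaneous samples for 11 MHC class II genes in MDM (red circles) and microglia (green squares) from 1 fit over 21 libraries, with the standard error as bars and an asterisk where the difference between cell types was called. H2-Aa is at -0.99 in MDM, where it was not called, and at 3.17 in microglia. In the MDM libraries alone it is at 0.45 on the macrophage scale, where the median of all genes is 1.75.

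The windows before the start sites of H2-Aa and H2-Eb1 are shown because the change of these class II genes differed between the 2 cell types: both rose in microglia, while in MDM neither was called (-1.31 and -1.47, and 0.45 and 0.29 on the macrophage scale). The median of all genes on that scale was 1.75. The 250 bases, from RefSeq on GRCm38.p6, have matches to CTGATTGG, the Y box of class II promoters, or its reverse complement CCAATCAG in capitals. The H2-Aa window is chr17:34287824-34288073 on the minus strand and the H2-Eb1 window chr17:34305617-34305866 on the plus strand.
H2-Aa: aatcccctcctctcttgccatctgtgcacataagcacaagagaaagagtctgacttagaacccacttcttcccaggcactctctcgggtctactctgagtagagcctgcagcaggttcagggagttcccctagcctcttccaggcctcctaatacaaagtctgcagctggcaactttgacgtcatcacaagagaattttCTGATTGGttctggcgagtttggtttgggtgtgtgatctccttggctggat
H2-Eb1: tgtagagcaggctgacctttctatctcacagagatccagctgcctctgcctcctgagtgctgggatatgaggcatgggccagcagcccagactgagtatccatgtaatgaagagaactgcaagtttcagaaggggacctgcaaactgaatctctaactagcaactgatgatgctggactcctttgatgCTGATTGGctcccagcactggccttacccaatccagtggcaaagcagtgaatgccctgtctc
The match began 51 bases before the start in H2-Aa and 62 bases before it in H2-Eb1. Counted by gene, it was present in 4 of the 8 class II list members found in the RefSeq table and in 1198 of 27025 genes. Of 32851 windows of this length 3.83% held it.

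Some complement and receptor genes also had a more negative change in MDM than in microglia, as did 1.26% of all genes. Of 16 complement genes 6 differed and were more negative in MDM: C3ar1, the receptor of the C3a peptide, had 12716 to 20010 reads in spontaneous and 670 to 18971 in transplanted MDM, but 17846 to 34041 over all microglia libraries (difference -1.93 ± 0.41, adjusted p = 0.019). Mertk (-3.40 ± 0.59, adjusted p = 0.0068) and Axl (-2.12 ± 0.36, adjusted p = 0.0060) differed in the same direction. Trf, the iron carrier transferrin, had 27029 to 56363 reads in spontaneous and 3731 to 20027 in transplanted MDM, against 30867 to 86876 over all microglia libraries (difference -2.01 ± 0.41, adjusted p = 0.015). In type 2 transplanted replicate 3 C3ar1, at 18971 reads, was within the range of spontaneous MDM. In the 9 MDM libraries 1 of the 16 complement genes rose and 1 fell (median -2.07, and -0.31 on the macrophage scale). Of all genes 2.96% rose and 2.21% fell there, and their median on the macrophage scale was 1.75. On that scale C3ar1 changed by -1.07, Mertk by -1.04, Axl by -1.12 and Trf by -0.55 in MDM, and none of them was called.

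A smaller group of genes was split by model in both cell types. In microglia the model changed 317 genes (1.84%), 173 upward (1.00%) and 144 downward (0.836%). Of the 456 genes that rose in MDM 34 also rose in microglia, which is 7.46% of the MDM rises and 20.6% of the 165 microglia rises among the same tested genes, and 28 of 341 falls were shared (8.21%, and 20.4% of 137). For 23 genes all transplanted libraries lay above all spontaneous ones in both cell types, and for 16 they lay below. In microglia alone the models were split in this way for 0.771% of the tested genes upward and 0.558% downward, beside 4.64% and 4.78% in MDM. Gbp2b was one of them, with 55.2 to 3045 reads in transplanted and 0 to 1.87 in spontaneous microglia (8.06 ± 0.66, adjusted p = 4.9e-06; difference between cell types adjusted p = 0.71). Spp1 was another, with 619 to 7915 reads in transplanted and 26587 to 371282 in spontaneous microglia (-5.27 ± 0.56, adjusted p = 5.5e-05; difference adjusted p = 0.74).

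The next 4 genes of this group were chosen after their values were seen. Nlrp1a, an inflammasome sensor, had 88.4 to 201 reads in type 1 transplanted, 280 and 589 in type 2 transplanted and 14.7, 15.6 and 11.8 in spontaneous MDM (3.61 ± 0.53, adjusted p = 0.011), and 327 to 699 against 0 to 16.2 in microglia. Esr1, the estrogen receptor alpha, had 167 to 352, then 213 and 570, and 32.6, 116 and 47.2 reads in MDM (2.28 ± 0.52, adjusted p = 0.040), and 1407 to 2596 against 29.0 to 148 in microglia. Cxcl14, a chemokine, had 39.2 to 134, then 240 and 371, and 1263, 965 and 1347 reads (-3.34 ± 0.54, adjusted p = 0.016). Colec12, a scavenger receptor of the collectin family, had 9.53 to 191 reads in transplanted and 298 to 1091 in spontaneous MDM (-3.90 ± 0.83, adjusted p = 0.033).

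Some of the genes with the largest differences between cell types had few reads in microglia. Klrb1a, an NK cell receptor, rose in MDM (2.90 ± 0.69, adjusted p = 0.044) and had 0 to 10.9 reads in transplanted and 19.6 to 419 in spontaneous microglia, a difference of 8.02 ± 1.08 (adjusted p = 0.0017). Ccl1 had at most 9.08 reads in any microglia library and differed by 6.14 ± 0.87 (adjusted p = 0.0020). Chil1 had 26.9 to 203 reads in transplanted and 29.8 to 1626 in spontaneous microglia and differed by -6.03 ± 1.36 (adjusted p = 0.027). Serping1, the inhibitor of the first complement component, had 0 to 89.1 reads in transplanted and 10.7 to 127 in spontaneous MDM, but 165 to 2172 in transplanted and 0 to 256 in spontaneous microglia (difference -7.93 ± 1.92, adjusted p = 0.036).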

How the data were processed

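RNA of sorted MDM and microglia was measured. TRIzol lysates gave the RNA, which was amplified with SMART-Seq v4, per the labels' protocols. The submitters' processing notes name STAR 2.7.8a, DESeq2 and the build mm10. The authors deposited log2 values (from the values, a variance-stabilised log2 scale), which were inverted in closed form to whole reads and 1 size factor per library, and a test for log2 data replaced the one planned for normalised counts. The members and gene lists were chosen with earlier results of these data known.

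Levels are normalised read counts. limma-trend 3.58.1 (R 4.3.3) was fitted to log2(count + 1) with tumour type and model as terms, over 15425 genes with at least 10 in at least 3 of 9 libraries. Within-type effects used 1 mean per group, and the comparison with microglia used 8 groups of 21 libraries (17216 genes). Calls are at 0.05 after Benjamini-Hochberg adjustment across the tested genes. The fit was tested on simulated data. Named genes are the 12 largest rises and falls with a mean of at least 50, up to 4 members per list by p, up to 5 differences each way and fixed genes. The text gives values for a part of these genes, and genes named outside the rule are marked as such. Of the symbols 96.3% matched RefSeq. No 2 of the 9 libraries were identical (36 pairs, Pearson r 0.82 to 0.96). Python 3.11.15, numpy 2.4.6, pandas 2.3.3 and matplotlib 3.10.9 were used. Alternatives were another pseudocount, filters, normalizations, weights, covariates, voom, and libraries left out.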

Additional observations from a re-analysis of the deposited data

Results flagged for a closer look

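Within the 4 type 1 transplanted libraries, the gap between 1 value and the other 3 took up most of the range for some named genes, among them Col8a2, Cd93, Hunk and H2-Q4. Col8a2 had 24.8 normalised reads in replicate 1, against 218 to 282 in the other libraries. Cd93 had 369 reads in replicate 1 and 193 to 209 in the others. H2-Q4 had 3650 reads in replicate 1 and 581 to 637 in the others. Hunk had 0.873 normalised reads, which is 1 read, in replicate 2 and 0 in the others, a gap of a single read. Chance alone marks about 1 in 20 such groups.

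The effect of the model differed between tumour types, by a test of the difference itself, for Chil3 (-12.64), Spint1 (-10.66), Arg1 (-8.64), Cd93 (-5.47) and 0610042G04Rik (-5.26). The type 2 side of each holds a single spontaneous library, so the spread in this test comes from the other groups. Of the 8 fits without 1 other library Spint1 was called in 8, Arg1 in 5, Chil3 and Cd93 in 3 and 0610042G04Rik in 2. The effect of the model differed between MDM and microglia for 385 genes.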

How the results depend on the processing

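The 797 calls between models became 1288 in a fit of 8 groups over all 21 libraries, 2734 with array weights, 383 without tumour type in the model, 314 with sex as a covariate, 8727 with scaling to 10 macrophage genes, 2698 with type 1 libraries alone and 64 with type 2 libraries alone. None remained without the 4 type 1 transplanted libraries or without these and type 2 transplanted replicate 1 (0 calls, 1118 genes at an unadjusted p under 0.05 with limma in the second case, which leaves 1 library per model in type 2). In both settings, and for the 64, the change is that among type 2 libraries, while type 1 libraries in the fit also set the spread. Leaving out 1 library gave 165 to 2623 calls between models, 571 to 2701 within type 1, 1 to 249 within type 2, 1 to 1037 for the difference between types and 214 to 924 for the difference between MDM and microglia. Within type 2 a pseudocount of 8 gave 34 calls and voom 0, and voom gave 3 for the difference between types. The type 2 spontaneous group holds 1 library, so results that need it could not be recomputed without it. The cause of these shifts was not tested. Fits that leave libraries out also hold fewer samples.

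No pairing of MDM libraries by replicate number across groups was detected. In groups of 2 libraries the deviations from the mean mirror each other, so such pairing could hardly have been seen. Same-numbered MDM libraries correlated at -0.08 to 0.08 in their deviations from group means, and 2 of 7 correlated best with their own number. Whether MDM pair with microglia of the same number was not tested. With the replicate block in the limma fit, which leaves fewer degrees of freedom, 0 genes were called and 2402 had an unadjusted p under 0.05.

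Signs turned for these named genes. The median of all genes was 1.75 on the macrophage scale, which Adgre1 and Spi1 helped to set. On the macrophage scale the changes were 0.04 for Abcg1, 0.44 for Adgre1, 1.47 for Ccr2, 0.35 for Cd9 and Spi1, 0.38 for Cd93, 0.47 for Ciita and H2-Ab1, 0.18 for Ctsa, 0.45 for H2-Aa, 0.54 for H2-DMb1, 0.29 for H2-Eb1, 0.16 for Itgam and 1.13 for Spint1. With type 2 libraries alone, as without the 4 type 1 transplanted libraries, they were 1.53 for Arg1, 2.26 for Ccr2, 2.27 for Cd93, 3.64 for Chil3, 0.12 for Fn1, 0.06 for H2-Ab1, 0.39 for H2-DMb1, 0.08 for H2-Eb1, 0.17 for Oas2, 2.44 for Serping1 and 6.49 for Spint1. Without 5 libraries they were 1.87 for Arg1, 0.52 for C3ar1, 3.04 for Ccr2, 0.12 for Cd14 and Fn1, 2.14 for Cd93, 0.36 for Ch25h, 4.15 for Chil3, 0.38 for H2-DMb1, -0.62 for Klhl30, -0.38 for Klrb1a, -0.41 for Ncr1, 1.12 for Oas2, 2.94 for Serping1, 7.11 for Spint1, 0.14 for Stab1, -0.01 for Styk1 and 0.09 for Tgfbi. Ccr2 was at 0.35 in the fit of 8 groups, 0.04 with quantile normalization, 0.10 with equal totals and -1.56 to 0.22 when 1 library was left out, above 0 without either type 1 spontaneous library. Gbp2 was at -0.78 with type 1 libraries alone and at -0.78 to 2.29 when 1 library was left out, below 0 without type 1 spontaneous replicate 1 or the type 2 spontaneous library. Spint1 was at 1.16 in the fit of 8 groups and at -4.17 to 0.71 when 1 library was left out, above 0 without either type 1 spontaneous library.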
